A study of Mus musculus with 8 samples.

Results

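Genes that mark the stem cells of the hair follicle were followed in dorsal skin of C3H mice treated with tieghemelin, maslinic acid, minoxidil or water. The set held 10 genes, Sox9, Lhx2, Nfatc1, Tcf7l1, Lgr5, Lgr6, Cd34, Cdh3, Aspn and Postn. A gene entered through its probe set, the group of array probes summarised to 1 value, and each of the 10 was found on 1 probe set among 19572 that carried a single gene symbol and 22206 that were tested. Tieghemelin is a plant triterpenoid, and maslinic acid is a pentacyclic triterpene acid. Minoxidil is a vasodilator applied to the scalp against hair loss.

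All groups were male C3H mice, an inbred wild-type strain, that were 7 weeks old, rested for 7 days, had the back depilated with cream and were then treated on the skin each day for 20 days. The 4 groups were 1% tieghemelin, 1% maslinic acid, 1% minoxidil and Milli-Q water as the control, with 8 mice assigned to each and 2 Clariom S Mouse arrays deposited per group. Minoxidil array 2 carries 2 doses in its labels, 1% as its description and 2% as its source name. The titles name the water arrays as the control of tieghemelin and maslinic acid, and no other control was given for minoxidil. No label ties an array to single or pooled mice, so p-values reflect only how far these arrays differ from each other, a spread that may be technical.

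The hair follicle regrows in cycles from stem cells that rest in the bulge, a swelling of the outer root sheath, and in the hair germ just beneath it. At the start of growth the hair germ divides first and the bulge follows, under WNT signals that promote activation and BMP signals that keep the cells quiet. Sox9, Lhx2, Nfatc1 and Tcf7l1 encode transcription factors of these cells, Lgr5 and Lgr6 encode receptors for R-spondins that raise WNT signalling, Cd34 and Cdh3 encode surface proteins, and Aspn and Postn encode proteins of the extracellular matrix.

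Values were log2 normalised intensities, on which a difference of 1 is a doubling. Background on an array was the median of 23 antigenomic probe sets (sequences absent from the mouse genome), and lay between 6.96 and 7.08 on the tieghemelin and maslinic acid arrays, between 7.33 and 7.51 with minoxidil and at 7.61 and 7.75 in the control. Control array 1 stood apart from the rest: Pearson r between it and any other array was 0.52 to 0.54 over the probe sets, and 0.90 to 0.97 between any 2 of the remaining 7. It held the lowest of the 8 values for Sox9, Aspn, Cd34, Tcf7l1 and Postn and the highest for Lgr6 and Lhx2. Differences from the control are therefore given with all 8 arrays and without control array 1, except for Nfatc1, which lay below background. The epidermal keratin genes Krt5 and Krt14 lay above background on 8 and 7 of the 8 arrays. Since whole skin was profiled, fewer cells of a type and less RNA per cell cannot be told apart.

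**Figure D1:**
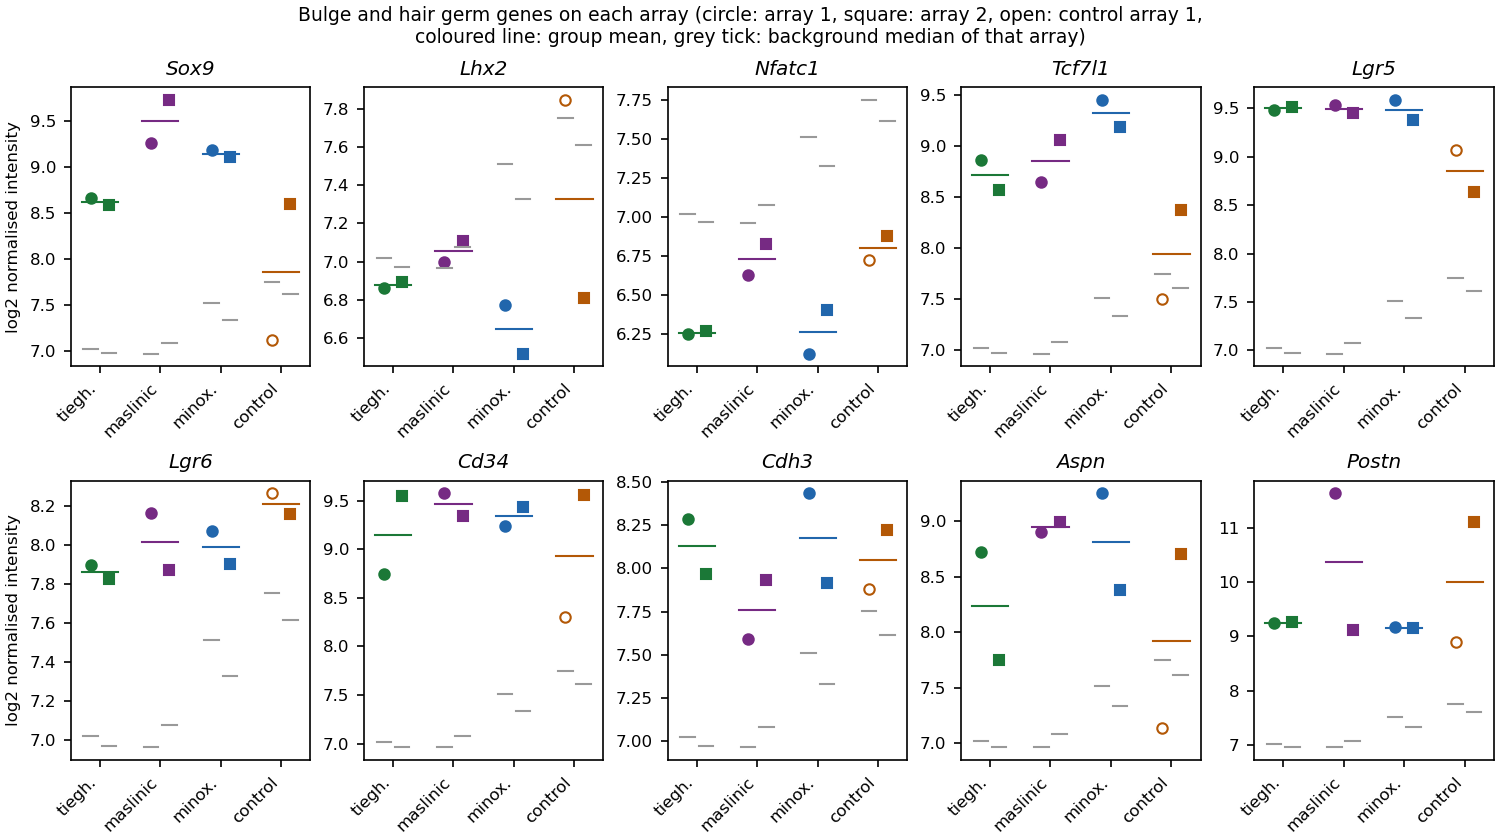
Log2 normalised intensity (vertical axis) of each of the 10 genes on each array, by group (horizontal axis); circles are array 1, squares array 2, the open circle is control array 1, coloured lines are group means and grey ticks the background median of that array. Lgr5 lies near 9.5 on every treated array and lower on both control arrays, Sox9 differs between the tieghemelin and maslinic acid arrays, and Nfatc1 lies below background throughout.

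Between the triterpenes, Sox9 was the gene whose arrays stood most clearly apart. Sox9 is required to form and maintain the bulge stem cells. It read 8.66 and 8.58 with tieghemelin, against 9.26 and 9.73 with maslinic acid. Both tieghemelin arrays lay below both maslinic acid arrays, and the minoxidil arrays, at 9.19 and 9.11, lay between these groups and overlapped neither. The difference of tieghemelin minus maslinic acid was -0.87 (SE 0.51, 95% interval -2.04 to 0.29), a 1.83-fold lower value with tieghemelin. Limma's moderated test gave an adjusted p of 1 over all probe sets. The same difference had an SE of 0.30 without control array 1, which enters only the estimate of the spread, and then met the study's own thresholds of a 1.7-fold change and an unadjusted p of at most 0.05 (interval -1.53 to -0.22). The adjusted p from limma was 1 there too. The thresholds were also met without control array 2 and in a fit of these 2 groups alone, and not when any treated array was left out.

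In the water control Sox9 read 7.11 on array 1, below that array's background of 7.75, and 8.60 on array 2. The first of these was the lowest of the 8 values, and the second lay within the span of the tieghemelin arrays. Maslinic acid differed from the control by 1.64 (SE 0.51, 3.12-fold, limma adjusted p = 0.448), and by 0.90 without control array 1 (SE 0.36, 1.87-fold, limma adjusted p = 0.331). It met the study's thresholds in both fits, but not without maslinic acid array 2, where the difference was 1.41. Minoxidil differed from the control by 1.29 (SE 0.51, 2.45-fold, limma adjusted p = 0.44), and by 0.55 without control array 1, where the thresholds were no longer met (limma adjusted p = 0.562). That call was likewise lost with any 1 treated array left out. For tieghemelin the difference was 0.77 (SE 0.51, limma adjusted p = 0.51) with all arrays and 0.026 (SE 0.36) without control array 1. Over background, however, Sox9 stood at 1.64 and 1.61 with tieghemelin and at 0.98 on control array 2. Since background was higher on the control arrays, equal expression is not read from the difference of 0.026. The order of the group means was maslinic acid, minoxidil, tieghemelin, control with and without control array 1, and the last 2 groups in it overlapped.

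Tcf7l1 encodes a TCF factor that represses WNT target genes in resting bulge cells. It was the gene that met the study's thresholds for minoxidil both with and without control array 1. The 250 bases before its start are shown to set them beside those of Postn, the gene with the widest range. RefSeq places them on GRCm38.p6 at chr6:72789046-72789295, minus strand, printed 5′ to 3′.
Tcf7l1: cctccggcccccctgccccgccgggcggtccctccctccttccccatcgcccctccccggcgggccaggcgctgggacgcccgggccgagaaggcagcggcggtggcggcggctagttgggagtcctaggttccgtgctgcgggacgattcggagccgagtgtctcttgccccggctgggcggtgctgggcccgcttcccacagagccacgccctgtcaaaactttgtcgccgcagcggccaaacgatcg
Their GC content was 73.6%, and neither TATAAA nor the TCF/LEF motif TCAAAG was found in them on either strand (other strand TTTATA and CTTTGA).

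Tcf7l1 read 8.87 and 8.57 with tieghemelin, 8.65 and 9.06 with maslinic acid, 9.45 and 9.19 with minoxidil, and 7.50 and 8.38 in the control. Every treated array lay above both control arrays, of which array 1 was below its background, and the tieghemelin and maslinic acid arrays overlapped. Minoxidil minus control was 1.38 (SE 0.42, 2.61-fold, limma adjusted p = 0.44). It met the study's thresholds with all arrays and also without control array 1, at 0.94 (SE 0.37, 1.92-fold, limma adjusted p = 0.323). Without minoxidil array 1 it did not (1.25). Tieghemelin and maslinic acid differed from the control by 0.78 and 0.91 with all arrays (limma adjusted p = 0.458 and 0.465), and by 0.34 and 0.47 without control array 1 (adjusted p = 0.749 and 0.642), so that neither met the thresholds. Tieghemelin minus maslinic acid was -0.14 (SE 0.42, interval -1.10 to 0.83).

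The LIM homeodomain gene Lhx2, whose product keeps bulge cells from differentiating, lay near background. It read 6.86 and 6.89 with tieghemelin, 7.0 and 7.11 with maslinic acid, 6.77 and 6.52 with minoxidil, and 7.85 and 6.81 in the control. Only 3 of the 8 values were above their array's background median, namely both maslinic acid arrays and control array 1. The maslinic acid values exceeded their background by only 0.034 and 0.029, so no fold is given between tieghemelin and maslinic acid. Limma gave a measured difference of -0.18 there (adjusted p = 1). Differences from the control were -0.45, -0.28 and -0.68 with tieghemelin, maslinic acid and minoxidil, and 0.067, 0.24 and -0.17 without control array 1. No order of expression against the control is read from them, since background was higher on the control arrays and control array 2 lay below its own.

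Nfatc1, whose product holds bulge stem cells in quiescence, was above background on 0 of the 8 arrays and is given without a fold. Its values were 6.25 and 6.27 with tieghemelin, 6.63 and 6.83 with maslinic acid, 6.13 and 6.41 with minoxidil, and 6.73 and 6.88 in the control. The tieghemelin and minoxidil arrays all lay under the maslinic acid and control arrays. Because background was itself lower on the tieghemelin and maslinic acid arrays than in the control, no order of expression is read from these values.

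Lgr5, a receptor gene of the hair germ and lower bulge, was nearly level over the 6 treated arrays. It read 9.48 and 9.52 with tieghemelin, 9.53 and 9.45 with maslinic acid, 9.59 and 9.38 with minoxidil, and 9.07 and 8.64 in the control. All 6 treated values lay above both control values, and the treated groups overlapped one another. Tieghemelin minus maslinic acid was 0.0086 (SE 0.35), with a 95% interval of -0.80 to 0.81, or -0.62 to 0.63 without control array 1. The treated groups differed from the control by 0.65 with tieghemelin, 0.64 with maslinic acid and 0.63 with minoxidil (SE 0.35 each, limma adjusted p = 0.458, 0.49 and 0.466), which is 1.56-, 1.56- and 1.55-fold. Without control array 1 the differences were 0.86, 0.85 and 0.85 (SE 0.35 each, limma adjusted p = 0.311, 0.331 and 0.338). All 3 then met the study's thresholds, and they share control array 2, the only remaining control. Without control array 2 in place of array 1 they were 0.43, 0.42 and 0.41, and none met the thresholds.

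For Lgr6, which marks stem cells of the isthmus above the bulge, values were 7.90 and 7.82 with tieghemelin, 8.16 and 7.87 with maslinic acid, 8.07 and 7.90 with minoxidil, and 8.26 and 8.16 in the control. The 8 values spanned 0.44, the narrowest range of the set, and all were above background. They exceeded it by 0.88 and 0.86 with tieghemelin and by 1.20 and 0.79 with maslinic acid. With minoxidil this excess was 0.56 and 0.57, and in the control 0.51 and 0.54. Since background was higher on the control arrays, no order of expression against the control is read from the differences that follow. Tieghemelin minus maslinic acid was -0.16 (SE 0.34, interval -0.94 to 0.63). Tieghemelin lay below both control arrays and differed from the control by -0.35 (SE 0.34, limma adjusted p = 0.643). Maslinic acid and minoxidil differed from it by -0.19 and -0.22. The 3 differences without control array 1 were -0.30, -0.14 and -0.17, and no treatment met the thresholds in either fit.

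Cd34 encodes a sialomucin of bulge keratinocytes in the mouse that endothelial cells and fibroblasts also carry. It read 8.74 and 9.55 with tieghemelin, 9.58 and 9.34 with maslinic acid, 9.24 and 9.44 with minoxidil, and 8.31 and 9.56 in the control. The groups overlapped in every comparison with all arrays, and control array 1 and tieghemelin array 1 were the lowest. Tieghemelin minus maslinic acid was -0.31 (SE 0.50, interval -1.47 to 0.84), and it turned to 0.092 without tieghemelin array 1. Differences from the control were 0.22 with tieghemelin, 0.53 with maslinic acid and 0.41 with minoxidil, and without control array 1 they turned to -0.41, -0.10 and -0.22. The mean log2 level of 13 measured endothelial genes was 7.48 and 7.51 with tieghemelin, 7.59 and 7.50 with maslinic acid, 7.39 and 7.59 with minoxidil, and 7.62 and 7.33 in the control. Its part in the Cd34 values was not tested.

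Cdh3, for P-cadherin, an adhesion protein of the hair germ and basal keratinocytes, was the 1 gene of the set that was higher with tieghemelin than with maslinic acid without overlap. It read 8.29 and 7.97 with tieghemelin, 7.59 and 7.93 with maslinic acid, 8.44 and 7.91 with minoxidil, and 7.88 and 8.22 in the control. Array 2 of each triterpene nearly met the other, and the difference of 0.37 (SE 0.38, interval -0.51 to 1.24) had a limma adjusted p of 1. Cdh3 exceeded background by 1.27 and 1.00 with tieghemelin, 0.63 and 0.86 with maslinic acid, 0.92 and 0.58 with minoxidil, and 0.13 and 0.61 in the control. As for Lgr6, no order of expression against the control is read from the differences that follow. Against the control Cdh3 differed by 0.079, -0.29 and 0.13 with tieghemelin, maslinic acid and minoxidil. Without control array 1 these differences were -0.092, -0.46 and -0.046, so that the signs of tieghemelin and minoxidil turned.

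Asporin, encoded by Aspn, is a small leucine-rich matrix protein that binds collagen, and its transcript is carried by fibroblasts as well as by the bulge. Aspn read 8.73 and 7.75 with tieghemelin, 8.90 and 8.99 with maslinic acid, 9.25 and 8.38 with minoxidil, and 7.13 and 8.70 in the control. Both tieghemelin arrays lay below both maslinic acid arrays, though tieghemelin array 1 did so by little. The difference was -0.71 (SE 0.61, interval -2.10 to 0.68, limma adjusted p = 1), and -0.22 without tieghemelin array 2. Tieghemelin minus control was 0.32 with all arrays and turned to -0.47 without control array 1. Maslinic acid minus control was 1.03 (SE 0.61, limma adjusted p = 0.501) with control array 1, which was below background, and 0.24 (adjusted p = 0.886) without it. Minoxidil minus control was 0.90 and 0.11 in these fits.

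Postn had the widest range of the set. It encodes periostin, a matrix protein of fibroblasts and of remodelling tissue. It read 9.24 and 9.26 with tieghemelin, 11.63 and 9.11 with maslinic acid, 9.17 and 9.15 with minoxidil, and 8.89 and 11.10 in the control. Maslinic acid array 1 and control array 2 stood far above the other 6 arrays, which lay between 8.89 and 9.26. Tieghemelin minus maslinic acid was -1.12 (SE 0.89, interval -3.18 to 0.94, limma adjusted p = 1). That value rests on which maslinic acid array is used: it was 0.14 without array 1, and -2.38 without array 2, where it met the study's thresholds (5.21-fold lower with tieghemelin, limma adjusted p = 1).

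Against the control, Postn turned on control array 1 as well. Tieghemelin, maslinic acid and minoxidil differed from the control by -0.74, 0.38 and -0.83 with all arrays (SE 0.89 each, limma adjusted p = 0.708, 0.86 and 0.677). Without control array 1 the differences were -1.85, -0.73 and -1.94 (SE 0.76 each). Those of tieghemelin (3.59-fold lower, limma adjusted p = 0.321) and minoxidil (3.83-fold lower, adjusted p = 0.319) then met the thresholds, with control array 2 as the only control. Some genes of other skin layers were high on the same arrays. Fabp4, a lipid-binding protein gene of fat cells, read 15.2 on maslinic acid array 1 and 14.3 on control array 2, and 10.6 to 11.4 elsewhere. Dcn, a collagen-binding proteoglycan gene of fibroblasts, read 10.2 and 11.1 on those arrays, and 7.68 to 9.11 elsewhere. Fabp4 was picked as the probe set most similar to Postn over 7 of these arrays, so its match follows from the choice. Dcn was chosen after its values were seen, and others of the 11 dermal fibroblast genes differed from it. Mfap5, Lum and Col6a1 were highest on control array 1. The mean of the 11 was 7.76 and 8.10 with tieghemelin, 8.27 and 7.84 with maslinic acid, 7.86 and 7.79 with minoxidil, and 8.25 and 8.85 in the control. The mean of 16 skeletal muscle genes was 9.01 and 8.57 with tieghemelin, 11.7 and 9.16 with maslinic acid, 10.8 and 10.5 with minoxidil, and 12.2 and 13.9 in the control. The part of these tissues in the Postn values was not tested.

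**Figure D2:**
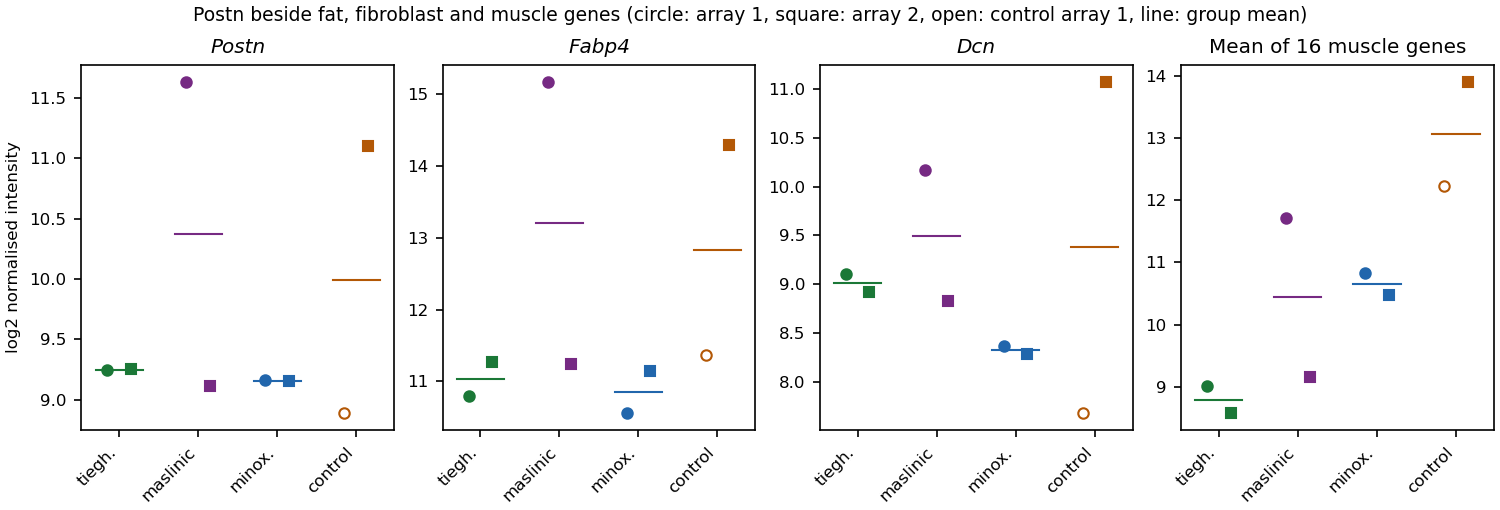
Log2 normalised intensity (vertical axis) of Postn, Fabp4 and Dcn and the mean of 16 skeletal muscle genes on each array, by group (horizontal axis); circles are array 1, squares array 2, the open circle is control array 1 and lines are group means. Maslinic acid array 1 and control array 2 are the 2 highest arrays for Postn, Fabp4 and Dcn. Fabp4 was picked for its likeness to Postn over 7 of these arrays, and Dcn after its values were seen.

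RefSeq lists more than 1 start for Postn. The 250 bases before the second one, on GRCm38.p6 at chr3:54360857-54361106, plus strand, are printed 5′ to 3′ because they hold the TATA box TATAAA, in capitals, 26 bases before the start.
Postn: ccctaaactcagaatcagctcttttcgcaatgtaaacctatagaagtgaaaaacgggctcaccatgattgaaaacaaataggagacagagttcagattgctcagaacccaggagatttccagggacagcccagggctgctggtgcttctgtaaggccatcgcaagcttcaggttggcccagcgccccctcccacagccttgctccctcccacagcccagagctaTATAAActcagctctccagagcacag
Their GC content was 52%, against 40.4% before the first start, where no TATAAA was found. Windows were held for 6 of the 10 genes, 8 windows in all. TATAAA or TTTATA was found before Aspn, 207 and 178 bases from its start, and in no other of the 8 but the Postn window shown. TCAAAG or CTTTGA was found in none. Of 32851 mouse windows of the same length, 12.4% held a TATA match and 13.8% a TCF/LEF match, so these matches describe the letters only.

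Over the set, tieghemelin was lower than maslinic acid for 8 genes and higher for 2, where 50.7% of all probe sets were higher. The median difference was -0.24, and the median over all probe sets was 0.0052. The arrays did not overlap for 5 of the 10, against 30.6% of all probe sets. Tieghemelin was lower for Sox9, Aspn, Lhx2 and Nfatc1 of these and higher for Cdh3. Lhx2 and Nfatc1 lay near or below background, so neither count is read as a difference in expression of the set. None of the 10 met the study's thresholds with all arrays, against 0.306% of all, and 1, Sox9, met them without control array 1, against 1.56%. Without maslinic acid array 2, 1 met them, Postn, against 0.374%. No gene of the set passed an adjusted p of 0.05 in these fits, and neither did any other probe set with all arrays or without control array 1 (0% in each). At an unadjusted p of at most 0.05 in limma, 0 of the 10 passed with all arrays (0.306% of all probe sets) and 1 without control array 1 (2.28%). With 2 arrays against 2, an exact permutation test cannot give a 2-sided p under 0.33.

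**Figure D3:**
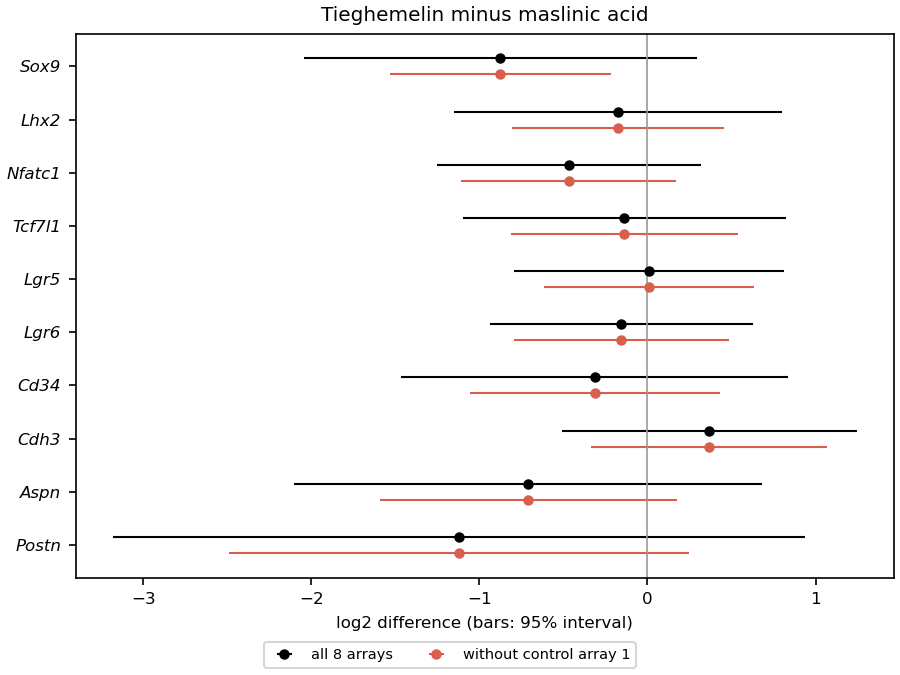
Log2 difference of tieghemelin minus maslinic acid (horizontal axis) for each of the 10 genes (vertical axis), with points for the difference and bars for the 95% interval; black is all 8 arrays and red is without control array 1. The red interval of Sox9, -1.53 to -0.22, is the only one that leaves out 0.

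Counts against the control depended on which control array was used. With all arrays, 0 genes of the set met the study's thresholds with tieghemelin (11.7% of all probe sets), 1 with maslinic acid (Sox9, 10.8%) and 2 with minoxidil (Sox9 and Tcf7l1, 11.3%). Without control array 1 these counts were 2 (Lgr5 and Postn, 13.7%), 2 (Sox9 and Lgr5, 12.8%) and 3 (Lgr5, Tcf7l1 and Postn, 12.9%). Without control array 2 they were 4 (47.5%), 5 (47.3%) and 5 (47.3%). Read against these shares, the counts set the 10 genes apart in none of the fits. Fits without a control array leave 1 control array. Likewise, fits without maslinic acid array 2 or without minoxidil array 1 leave 1 array in that group. Counts of the set against the control from any such fit are not read as a trait of the 10 genes.

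An adjusted p under 0.05 was reached by none of the 10 genes with all arrays (0% of all probe sets in each comparison) or without control array 1 (0.356% with tieghemelin, 0.0045% with maslinic acid and 0.0045% with minoxidil). Without control array 2, it was reached by 3 genes with tieghemelin (Sox9, Lhx2 and Tcf7l1, 37.9% of all), 4 with maslinic acid (Sox9, Aspn, Cd34 and Tcf7l1, 37.3%) and 4 with minoxidil (Sox9, Aspn, Lhx2 and Tcf7l1, 37.7%). Those calls rest on control array 1 alone. Arrays did not overlap for 4, 4 and 6 of the 10 genes with tieghemelin, maslinic acid and minoxidil (40.7%, 38.7% and 36.2% of all), and without control array 1 for 7, 7 and 8 (77.1%, 75.5% and 70%). The 3 comparisons share the control arrays, so their values are not independent of each other.

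**Figure D4:**
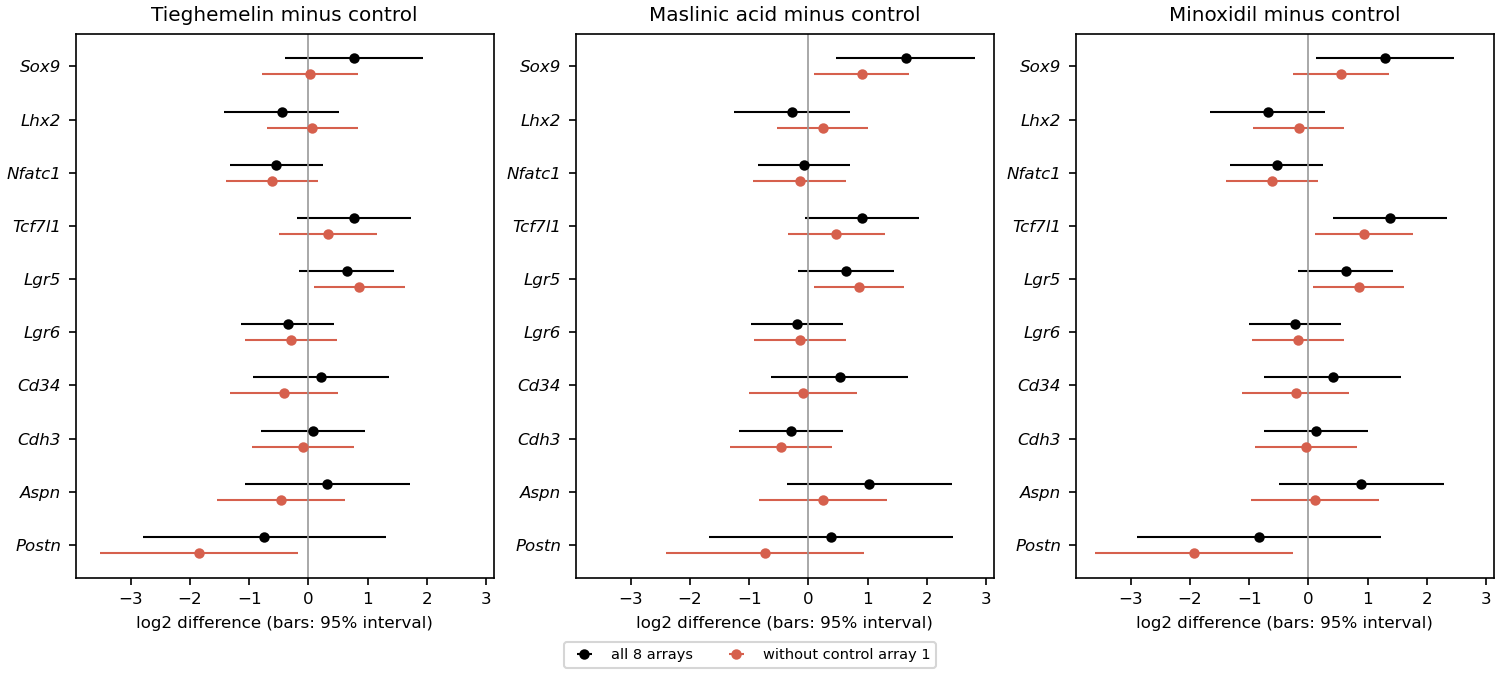
Log2 difference from the control (horizontal axis) for each of the 10 genes (vertical axis) with tieghemelin, maslinic acid and minoxidil; points are differences, bars 95% intervals, black all 8 arrays and red without control array 1. Lgr5, Sox9 and Tcf7l1 lie right of 0 in every panel. Without control array 1, Lgr5, Lgr6 and Lhx2 lie further right in each panel and the other genes, Postn and Cd34 among them, further left.

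Against minoxidil, neither triterpene had a gene of the set at the study's thresholds, with all arrays (3.3% of all probe sets with tieghemelin, 3.6% with maslinic acid) or without control array 1 (10.4% and 11.1%). Without maslinic acid array 2, Postn alone met them, 2.47 higher with maslinic acid (limma adjusted p = 1), against 1.36% of all. No adjusted p passed 0.05 in these comparisons, for the set or for any probe set (0%). Arrays did not overlap for 5 of the 10 genes with tieghemelin (43.8% of all) and 4 with maslinic acid (43.6%). Tieghemelin minus minoxidil ran from -0.61 for Tcf7l1 to 0.23 for Lhx2, a gene near background.

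Other genes of the stem cell compartment differed in both directions between the triterpenes. With 2 arrays per group, a small shift could not be resolved. Of 26 further hair follicle stem cell genes, 14 were higher and 12 lower with tieghemelin than with maslinic acid. Their median was 0.0081, and they ran from -0.76 (Krt15, a keratin of the bulge) to 0.36 (Krt24). The number that met the study's thresholds was 0 with all arrays (0.306% of all probe sets) and 0 without control array 1 (1.56%). Among the 26, Foxc1, Gas1, Sfrp1 and Sox21 were above background on 0 of the 8 arrays. Krt15 read 7.54 and 7.13 with tieghemelin, 8.87 and 7.32 with maslinic acid, 9.71 and 7.79 with minoxidil, and 7.48 and 9.87 in the control. Its arrays varied as widely within groups as between them. Against the control with all arrays, 4 of the 26 met the thresholds with tieghemelin (3 higher and 1 lower, against 11.7% of all probe sets), 4 with maslinic acid (3 and 1, against 10.8%) and 5 with minoxidil (2 and 3, against 11.3%). Without control array 1 there were 1 higher and 3 lower with tieghemelin (13.7% of all), 2 and 3 with maslinic acid (12.8%) and 1 and 3 with minoxidil (12.9%).

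Among the other cell types of skin, 0 of 13 growing hair bulb genes, 0 of 11 basal epidermis genes, 0 of 15 dermal papilla genes, 0 of 11 dermal fibroblast genes and 0 of 13 endothelial genes met the thresholds between tieghemelin and maslinic acid with all arrays, against 0.306% of all probe sets. In the fit without control array 1, 1 hair bulb gene (Krt35) and 1 basal epidermis gene (Krt5) met them, both lower with tieghemelin, against 1.56%. Skeletal muscle genes were lower with tieghemelin in 16 of 16, with a median of -1.86, and 6 met the thresholds with all arrays and 7 without control array 1. Maslinic acid array 1 held the higher muscle mean of its group, and the part of muscle in the values of the 10 genes was not tested.

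The probe set with the most similar pattern to each gene was sought among 14586 named probe sets by Pearson's r over the 7 arrays without control array 1, which share normalisation and treatment groups. It was Ndrg4 for Sox9 (r = 0.98), Defb46 for Lgr5 (0.99), Cnksr3 for Tcf7l1 (0.98) and Fabp4 for Postn (0.99), and r was 0.965 to 0.984 for the other 6. Each of these is the highest of 14586 values of r over 7 arrays, so a high r follows from the search. Even Nfatc1, below background throughout, reached 0.965. No shared regulation is read from these matches. Among the 45 pairs of the 10 genes the median r was 0.11, and 1 pair, Lgr6 and Postn, exceeded 0.8, so the genes of the set did not share 1 pattern over these arrays.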

How the data were processed

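RNA of dorsal skin was measured on 8 Clariom S Mouse arrays, 2 in each of 4 groups taken from the labels. The values deposited by the authors are log2 normalised intensities per probe set, made with Transcriptome Analysis Console 4.0.1 per the series' design text. The genome build was not given in the sources used here. After 6640 control probe sets were left out, 22206 were tested without a filter, of which 2634 carried no single symbol. Limma 3.58.1 in R 4.3.3 (lmFit, eBayes) was fitted on all 8 arrays with 4 residual degrees of freedom, and with 3 when an array was left out. P-values were adjusted by Benjamini-Hochberg over all probe sets. A group left with 1 array is assumed to vary like the others. The number of arrays limits the precision. The fit was tested on simulated data in which all arrays of a probe set shared 1 spread, taken from the treated arrays. An array that stands apart, as control array 1 did, was not simulated. The 10 genes and the lists were chosen with earlier results of these data known. All 10 genes are named, and the most similar probe set for some of them. Other genes of the lists are named in part, some after their values were seen. Alternatives were a replicate block, a filter on low values, quantile normalisation, a common median, eBayes with trend, the 2 groups alone, and each array left out. Promoter windows come from RefSeq.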

Additional observations from a re-analysis of the deposited data

How the results depend on the processing

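No call of the 10 genes changed with the replicate block, quantile normalisation, a common median or eBayes with trend. The filter on low values kept 6 of them, whose calls did not change, and removed Lgr6, Lhx2, Nfatc1 and Cdh3, which have no value under it. Between the numbered arrays of a pair of groups, deviations from the group means correlated at -0.17 to 0.09, so no effect shared by the array numbers was seen. Whether the numbers pair the arrays by design is not given in the labels. With the replicate block, 51 probe sets in place of 68 met the study's thresholds for tieghemelin minus maslinic acid, and 62 with the crossed replicate block, an alternative chosen after seeing the data, with 0 of the 10 genes in each. In fits of the 2 groups alone, 1 gene met the thresholds for tieghemelin minus maslinic acid, against 0, and 1 for minoxidil minus control, against 2. Under a common median, Nfatc1 in tieghemelin minus minoxidil changed sign, to 0.00022 against -0.0055. With each array left out in turn, the number of genes at the study's thresholds ran from 0 to 1 for tieghemelin minus maslinic acid, 0 to 4 for tieghemelin minus control, 0 to 5 for maslinic acid minus control, 0 to 5 for minoxidil minus control and 0 to 1 for maslinic acid minus minoxidil. The number at an adjusted p under 0.05 ran from 0 to 3, 0 to 4 and 0 to 4 for tieghemelin, maslinic acid and minoxidil minus control. The highest counts against the control came without control array 2, where the share of all probe sets rose as well. These ranges are therefore not read as a trait of the 10 genes. Log2 differences that changed sign when an array was left out are given from lowest to highest. For tieghemelin minus maslinic acid these were Cd34 -0.72 to 0.092, Lgr5 -0.030 to 0.048, Postn -2.38 to 0.14 and Tcf7l1 -0.34 to 0.066. For tieghemelin minus control these were Aspn -0.47 to 1.10, Cd34 -0.41 to 0.84, Cdh3 -0.092 to 0.25, Lhx2 -0.97 to 0.067 and Postn -1.85 to 0.36. For maslinic acid minus control these were Cd34 -0.10 to 1.15, Lhx2 -0.79 to 0.24, Nfatc1 -0.17 to 0.026 and Postn -0.88 to 1.64. For minoxidil minus control these were Cd34 -0.22 to 1.03, Cdh3 -0.14 to 0.39 and Postn -1.94 to 0.27. For tieghemelin minus minoxidil these were Cd34 -0.60 to 0.21, Cdh3 -0.31 to 0.21, Lgr5 -0.087 to 0.12 and Nfatc1 -0.15 to 0.14. For maslinic acid minus minoxidil these were Aspn -0.31 to 0.57, Lgr5 -0.10 to 0.11, Lgr6 -0.12 to 0.18 and Postn -0.047 to 2.47. The cause was not tested. With 2 arrays per group, and Nfatc1 and Lhx2 at or below background, small differences could not be resolved.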
